A study of Solenopsis invicta with 3 samples.

Results

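Most odorant receptor genes listed for the fire ant Solenopsis invicta gave few reads in worker antennae, and very few gave none. Of 473 genes with an identifier beginning with SiOR, 296 had a mean normalized count under 10 over the 3 antennal libraries, and these are the silent or rare receptors described here. A normalized count is the expected count, the number of reads that RSEM assigned to a gene, divided by a size factor taken from the 75th percentile of each library. The remaining 177 receptors, at a mean of 10 or more, are called expressed. The members were thus chosen by their measured counts, so their levels are a description and carry no test. The share of receptors under 10 was 62.6%, beside 57.4% of all 19703 genes. In contrast, only 10 of the 473 receptors (2.11%) had an expected count of 0 in each library, beside 24.6% of all genes.

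Odorant receptors are membrane proteins of the sensory neurons that lie beneath the pored hairs of the insect antenna. Each receptor subunit forms an ion channel with a coreceptor that all such subunits share, and a neuron usually expresses a single receptor or a few. Ant genomes carry very large receptor families, often in tandem arrays of similar genes, and colony members recognize one another in part through them. A receptor used by few antennal neurons makes up little of the RNA of a whole antenna. In such bulk RNA, fewer cells of a type and less RNA per cell cannot be told apart.

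Antennae came from workers attracted with honey in the foraging area of colonies from Taiwan. The worker classes differed in social form and in genotype at the supergene that sets it, which has the haplotypes SB and Sb. The class P_Bb held SB/Sb heterozygotes of the polygyne form, in which a colony keeps several queens, P_BB held SB/SB homozygotes of the same form, and M_BB held SB/SB homozygotes of the monogyne form, in which a colony keeps 1 queen. Per the labels each class gave 1 library, from a pool of 3 bioreplicates by the design text although 4 colony names are listed, and both polygyne pools share their colony names while those of M_BB are others, so colony and social form cannot be told apart. Below, 3 values in a row without names are in the order P_Bb, P_BB, M_BB. The libraries summed to 1310209, 1800106 and 1453234 expected counts. No class had a replicate, so a difference between libraries has no replicate check, and intervals below cover counting error only. The files do not pair identifiers with gene symbols, so a check of the tissue was limited to the receptors themselves, of which 463 had a count in at least 1 library.

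Receptor levels formed a continuous series with no gap at the threshold. The median mean normalized count was 4.63 for the silent or rare receptors (quartiles 2.10 and 6.70) and 15.8 for the expressed ones (12.7 and 22.7). SiOR1_co, the single identifier with a suffix, stood far above the rest at 601, and the next receptor had 180. Among the 296, 10 had no reads, 28 had a mean above 0 and up to 1, 32 lay between 1 and 2, and 26 between 2 and 3. The remaining receptors were spread over 3 to 5 (62 genes), 5 to 7 (71) and 7 to 10 (67). Most of the members were thus rare and not silent.

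**Figure D1:**
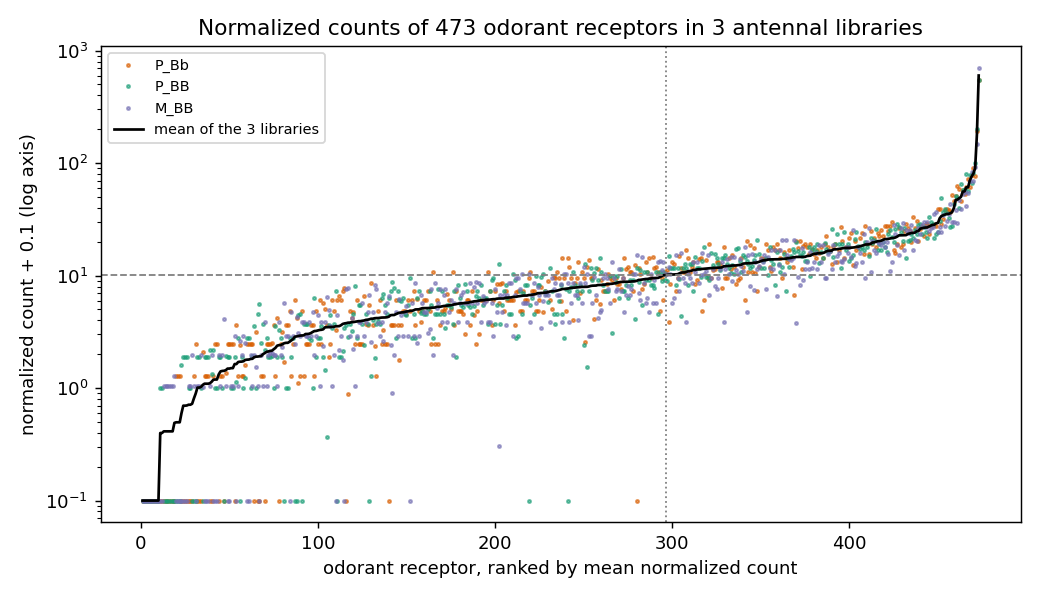
Normalized counts (plus 0.1, log axis) of the 473 odorant receptors, ranked by their mean over the 3 libraries (black line), with 1 coloured point per library. The dashed line marks a mean of 10 and the dotted line the 296th receptor; the curve crosses the threshold without a step, and single libraries scatter to both sides of it.

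The receptors nearest to the threshold on either side had almost the same counts. Just inside, SiOR333 had 9, 10 and 11 counts (mean normalized count 9.995). SiOR224 had 5, 12 and 14.1 counts (mean 9.97). Just outside, SiOR392 had 9.34, 9.85 and 10.9 counts (mean 10.04), and SiOR133 had 3.20, 16.4 and 12.5 (mean 10.1). The counting interval of SiOR333 in P_Bb alone ran from 4.12 to 17.1 counts (exact Poisson, 95%), which covers the values on both sides of the threshold. The other receptors nearest to it were SiOR250, SiOR269 and SiOR432 inside, with means of 9.77, 9.58 and 9.44, and SiOR372, SiOR85 and SiOR375 outside, with means of 10.1 each. A member could also reach 10 in at least 1 library, as 58 of the 296 did. The highest normalized count of a member was 15.0, reached by SiOR280 in M_BB.

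Reads of these receptors were seen again from library to library. Of the 296, 224 (75.7%) had a count in all 3 libraries, 42 (14.2%) in 2, 20 (6.76%) in 1 and 10 (3.38%) in none. Among all genes with a mean under 10, 30.9% had a count in all 3 libraries and 42.9% had none. The genes other than receptors under that mean were shorter, with a median length of 564 bases, and their level was lower. At a mean of at least 1 and under 10, a count of 0 was found in 36 pairs of gene and library for 258 members. For 4083 other genes in this range it was found in 882 pairs. With 3 libraries for each gene, the contrast in this range was thus much smaller. The levels still differed there, with a median of 5.18 normalized counts for members and 3.58 for other genes. The number of members with a count was 254 in P_Bb, 262 in P_BB and 260 in M_BB, an order that follows the library totals. Of the 20 receptors found in a single library, 4 were found in P_Bb, 7 in P_BB and 9 in M_BB.

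At this depth, however, many of these counts lay at the limit of detection. A count of 0 allows up to 3 counts, which served as the floor. In all 3 libraries, 118 members were above the floor and 75 were at or under it, and 103 were above it in 1 or 2 libraries. The expressed receptors were above the floor in each library for 177 of 177, in part because the threshold selects for this. The median member had 4, 5 and 4 counts, and 14 counts summed over the libraries. Even the sum over the 3 libraries was 3 counts or less for 40 members.

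Detection in a single library rested on a few reads. SiOR173 had the most, with 6.08 counts in P_BB and 0 in P_Bb and M_BB, but its posterior mean counts, which average over the possible assignments of reads that fit several transcripts, were 1.77, 8.14 and 2.05. SiOR275 had 4.24 counts in M_BB and 0 in both polygyne libraries, and its posterior means in P_Bb and P_BB were also 0. Its interval in M_BB was 1.21 to 10.6 counts and the limit in the others was 3, so a difference was not detectable at this depth. The next were SiOR357 with 2.01 counts in P_BB, SiOR17 with 2 in P_BB and SiOR114 with 2 in M_BB. All of these but SiOR173 and SiOR275 were at or under the floor.

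The receptors with no assigned read in any library were SiOR84, SiOR90, SiOR162, SiOR231, SiOR236, SiOR238, SiOR239, SiOR240, SiOR356 and SiOR386. For 7 of them the posterior mean and its SD were also 0 in each library. The exceptions were SiOR84, SiOR90 and SiOR386. The depth set a bound on the 7 receptors without such posterior counts. With the floor of 3 counts in a library, their TPM (a transcript level scaled by effective length and by library) was at most 5.35 to 6.59 in P_Bb, 3.85 to 4.73 in P_BB and 4.46 to 5.48 in M_BB, from the longest to the shortest, SiOR162 and SiOR238. The expressed receptors had a median TPM of 19.4, 17.4 and 17.8 and a lowest TPM of 4.17, 4.23 and 2.97, so in a single library the limits reach into their range. At the level of the lowest expressed receptor per length, SiOR472 with 9.12 normalized counts per kilobase of effective length, these 7 receptors would have given 14.8 to 18.2 counts over the 3 libraries together. Over the 3 libraries their level per length thus lay below that of each expressed receptor, in part because of the rule, and expression under the limits was not detectable.

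The silent receptors with a posterior mean of 0 throughout were short. Their lengths were 795 bases in SiOR238, 810 in SiOR356, 840 in SiOR231, 867 in SiOR239, 906 in SiOR240, 915 in SiOR236 and 918 in SiOR162. The 3 with a posterior mean above 0 were of the usual receptor length, at 1164 bases in SiOR84 and SiOR386 and 1173 in SiOR90. The 2 groups did not overlap in length, but they are small and were split by their posterior means. SiOR386 had posterior means of only 0.19, 0.22 and 0.

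Length, which the rule did not use directly, was lower in the median for the silent or rare receptors than for the expressed ones. All 473 receptor lengths were multiples of 3, so they are coding lengths without untranslated ends. The median was 1104 bases, or 368 codons, for the 296 members and 1161 bases, or 387 codons, for the expressed receptors. The gap lay mainly in the lower tail. The lower quartile was 933 bases in the members and 1125 in the expressed receptors, whereas the upper quartiles were 1170 and 1194. Under 900 bases were 62 of 296 members (20.9%) but 4 of 177 expressed receptors (2.26%). Receptors are not independent replicates, since tandem copies share their sequence and length, so these values are given without a test.

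Length rose with the number of libraries in which a receptor was found. The counts that set these classes themselves grow with length, so the classes are not independent of it. The median was 910.5 bases for receptors with no reads, 912 for those in 1 library, 1072.5 for those in 2 and 1126.5 for those in 3. By level, it was 870 bases at a mean above 0 and up to 1, 1008 at 1 to 3, 1137 at 3 to 5, 1143 at 5 to 7 and 1149 at 7 to 10. Above a mean of 3 the medians were therefore close to that of the expressed receptors, but a tail of shorter entries was left. Of the 28 receptors with a mean above 0 and up to 1, 17 were under 900 bases, and of the 58 at 1 to 3, 20 were. At 3 to 5, 5 to 7 and 7 to 10, 17.7%, 7.04% and 7.46% were under 900 bases, and the lower quartiles were 939.75, 1062 and 1045.5 bases, each below that of the expressed receptors.

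**Figure D2:**
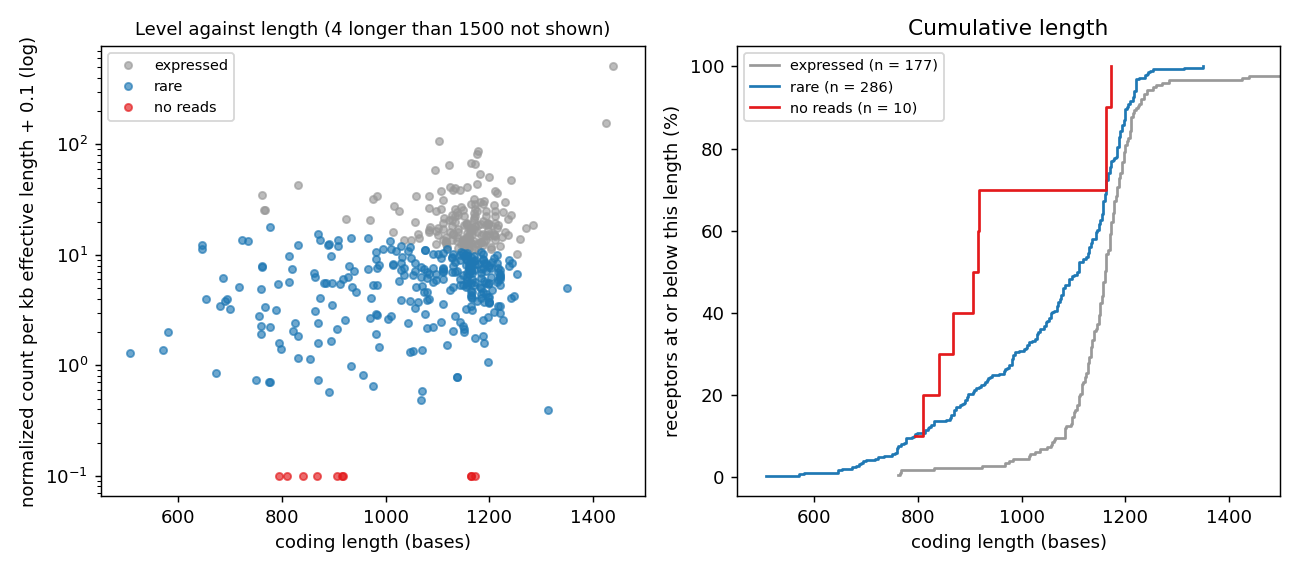
Left, normalized count per kilobase of effective length (plus 0.1, log axis) against coding length for expressed (grey), rare (blue) and silent (red) receptors; right, the cumulative share of each group by length. The curve of the rare receptors runs to the left of the expressed ones below the upper quartile, and 7 of the 10 silent receptors are at 918 bases or less; the 4 longest receptors lie off the drawn range.

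A longer transcript gives more reads at the same level, so the comparison was repeated per length. Effective length is the number of positions at which a fragment can start, and the mean fragment lengths read from the tables were 262, 259 and 257 bases in P_Bb, P_BB and M_BB. No receptor had an effective length of 0, and the lowest was 248 bases. Per kilobase of effective length, the median level was 3.56 normalized counts for receptors under 900 bases, 7.17 for those of 900 to under 1050, 7.56 for 1050 to under 1110, 10.4 for 1110 to under 1170, 9.98 for 1170 to under 1230 and 14.3 above. Division by length thus did not level the classes. The share of receptors that fell under a mean of 10 was 93.9% of 66 in the shortest class, 86.9% of 61, 64.8% of 54, 51.4% of 138, 51.5% of 130 and 33.3% of 24 in the longest. At or above 1125 bases, the lower quartile of the expressed receptors, the family was split almost evenly, with 137 silent or rare and 134 expressed. Whether the shorter entries are whole genes, fragments or pseudogenes was not tested.

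Exceptions showed that a short entry can be well covered. SiOR209, of 777 bases, had 9, 12 and 6.64 counts, and at 17.8 normalized counts per kilobase it was the highest of the 296. The 5 shortest members were SiOR105 (507 bases), SiOR106 (570), SiOR464 (579), SiOR255 and SiOR257 (645 each). SiOR105 had 1 count in P_BB, SiOR106 had 1 in P_Bb, and SiOR464 had 1 each in P_BB and M_BB. In contrast, SiOR255 had 5, 3 and 6.02 counts, or 12.3 normalized counts per kilobase, and SiOR257 had 3, 8.55 and 1.98 counts, or 11.3 per kilobase. Per kilobase, 33 of the 296 reached 10 and 49 were at or above SiOR472, the lowest expressed receptor, while 0 reached the expressed median of 18.2. These values come from the counts that the rule used and are descriptive.

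By identifier number, the silent or rare receptors fell into 92 runs, 8 of them of 10 or more receptors, where 62.6% of all receptors were members. In blocks of up to 25 numbers the share of members ran from 40% to 88%. The numbers are labels here, and no position in the genome is read from them. The longest run of consecutive numbers without an expressed receptor was SiOR228 to SiOR244, with 17 receptors. It held 5 of the 10 silent receptors, and its 17 genes together had 22.5, 35.7 and 22.5 counts. Each of the receptors next to it, SiOR227 and SiOR245, was expressed, with means of 19.9 and 13.6. Within the run, SiOR244 was highest (mean 6.91) and SiOR235 next, with 2, 5 and 6 counts. SiOR232 was the longest of the run at 1314 bases and had a single count, in M_BB. For 12 of the 17, including the 5 with no reads, the posterior SD was 0 in each library, and the median length of the run was 915 bases. The other runs of 10 or more included SiOR100 to SiOR111, with 117 counts in all and a median length of 879 bases, and SiOR443 to SiOR453, with 126 counts and 912 bases. Not every run was of short entries, since SiOR148 to SiOR157 had a median length of 1186.5 bases and SiOR86 to SiOR95 of 1179.

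**Figure D3:**
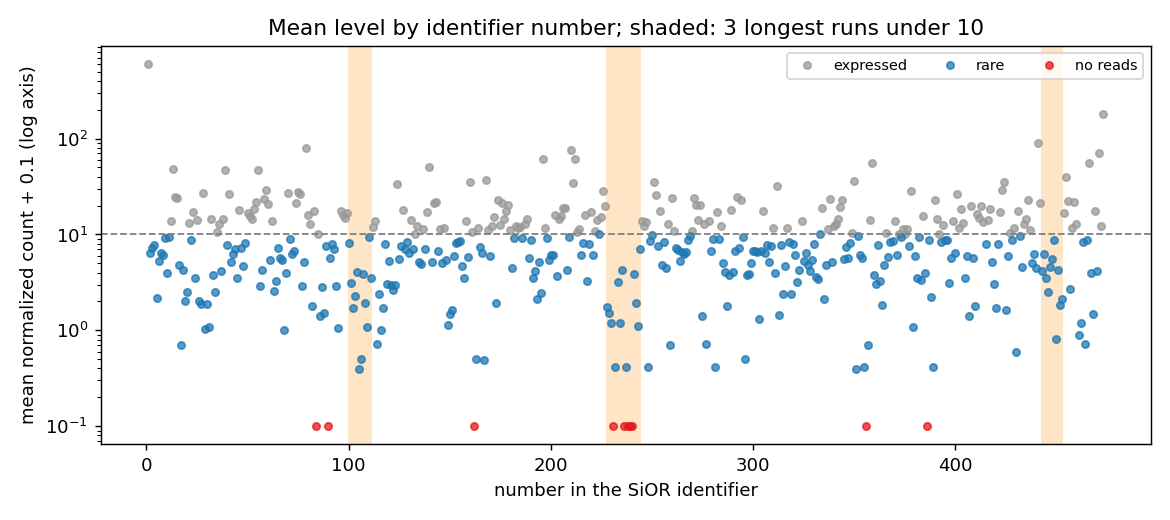
Mean normalized count (plus 0.1, log axis) of each receptor against the number in its identifier; red points are the 10 receptors with no reads and the dashed line is the threshold of 10. Shading marks the 3 longest runs without an expressed receptor, of which SiOR228 to SiOR244 holds 5 red points.

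Similar receptors share sequence, and a read that fits several of them is divided among them by RSEM. A posterior SD above 0 in at least 1 library shows that a gene had such reads. This was found for 189 of the 296 members (63.9%) and for 154 of the 177 expressed receptors (87.0%). The background was 15.0% of all genes with a mean under 10, of which 42.9% had no reads. At a mean of at least 1 and under 10 it was found for 67.8% of the 258 members and 25.1% of 4083 other genes. In most members the ambiguity was small. An SD of at least 1 count was reached by 44 members (14.9%). A posterior mean at least 1 count away from the expected count in a library was found for 18 (6.08%). Both shares were higher than among all genes with a mean under 10, at 1.87% and 0.716%. They were lower than among the expressed receptors, at 27.1% and 10.7%. At a mean of at least 1 and under 10 they were 15.5% and 6.20% for members and 2.99% and 0.686% for other genes. An SD of 0 throughout was found for 107 of the 296 members, and 100 of these had reads.

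For a few receptors the assignment changed which library appeared to lack them. SiOR84 had an expected count of 0 in each library, but posterior means of 1.52, 4.05 and 4.95 (posterior SDs 1.51, 3.10 and 3.60). SiOR90 also had 0 throughout, with posterior means of 2.42, 2.42 and 0.42, and SiOR386 had 0.19, 0.22 and 0. Neither the absence of SiOR84 nor that of SiOR90 can be read from an expected count of 0. SiOR89 had 12, 0 and 9 counts, and posterior means of 6.41, 1.18 and 4.52. Its gap of 5.59 counts in P_Bb was the largest of any member in any library.

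SiOR279 and SiOR280, named together after their values were seen, showed the same in different libraries. SiOR279 had 8, 0 and 11 counts, while SiOR280 had 0, 13 and 16. Their posterior means were 6.43, 1.82 and 8.38 for SiOR279 and 4.42, 9.22 and 13.5 for SiOR280. Summed, the genes had 8, 13 and 27 expected counts, and no library was at 0. Whether the reads moved between these particular genes was not tested. The other members with the largest gaps were SiOR3, with 8.02, 5 and 8 counts and posterior means of 4.92, 2.77 and 7.10, and SiOR444, with 4.76, 14.1 and 0.22 counts and posterior means of 5.56, 14.1 and 3.12.

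**Figure D4:**
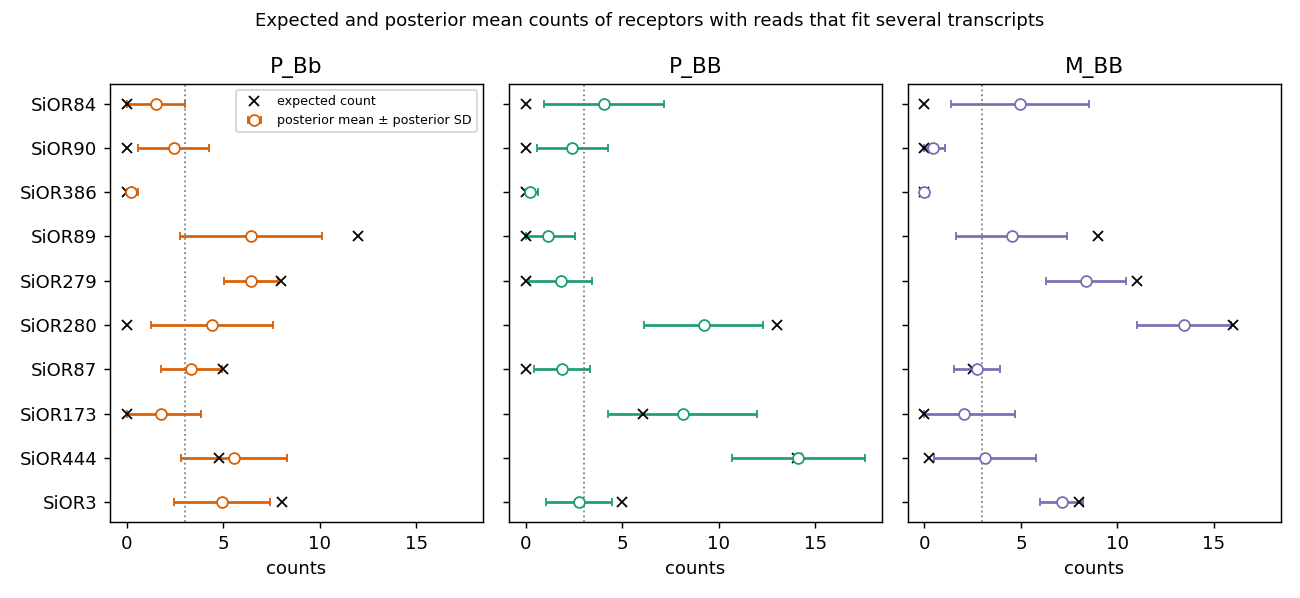
Expected counts (crosses) and posterior mean counts (open circles, bars of 1 posterior SD to each side that stop at 0) of 10 silent or rare receptors with ambiguous reads, in P_Bb, P_BB and M_BB. The dotted line marks the floor of 3 counts; SiOR84 lies above it by its posterior mean in P_BB and M_BB and SiOR280 in P_Bb, although each has an expected count of 0 there.

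The summed level of the silent or rare receptors was close between libraries. Together they gave 1188, 1507 and 1393 counts, with exact Poisson 95% intervals of 1121 to 1258, 1432 to 1585 and 1321 to 1468. These were 23.9%, 23.5% and 24.0% of all receptor counts, and the Wilson 95% intervals, 22.7 to 25.1, 22.5 to 24.6 and 22.9 to 25.1, overlapped. With the counts of SiOR1_co, the highest receptor, left out of the total, the shares were 26.4%, 26.0% and 27.5%. As normalized counts the sums were 1413, 1351 and 1306. The ratio was 1.05 for P_Bb against P_BB (exact 95% interval 0.969 to 1.13), 0.967 for M_BB against P_BB (0.898 to 1.04) and 1.08 for P_Bb against M_BB (1.0004 to 1.17). With total-count scaling, which raised M_BB relative to P_BB by 0.24 (log2, median over genes with a mean of at least 10), these became 1.08 (1.003 to 1.17), 1.14 (1.06 to 1.23) and 0.946 (0.875 to 1.02). For P_Bb against M_BB, median of ratios gave 1.06 (0.979 to 1.14) and TMM 1.04 (0.965 to 1.13). The place of M_BB in the order, and for each pair whether the interval held 1, thus depended on the scaling. The expressed receptors, with SiOR1_co among them, had ratios of 1.02, 0.944 and 1.08 at the first scaling.

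Single receptors were 2-fold apart between libraries at shares near those of other rare genes, or below them. Ratios were computed for the 258 members with a mean of at least 1, as log2 of the normalized count plus a pseudocount of 0.5, a scale that shrinks the changes of low genes. The 3 pairs share libraries and are not independent. Between P_Bb and P_BB, 95 of 258 were apart (36.8%), beside a background of 39.0% of all genes with a mean of at least 1 and under 10, and 15.2% of all genes with a mean of at least 1. Of these, 53 were higher and 42 lower in P_Bb, beside 21.2% and 17.8% of the genes in the same range. Between M_BB and P_BB, 76 were apart (29.5%), beside 35.8% in the range and 14.8% over all, with 33 higher and 43 lower in M_BB, beside 19.4% and 16.4%. Between P_Bb and M_BB, 85 were apart (32.9%), beside 38.4% and 16.6%, with 48 higher and 37 lower in P_Bb, beside 18.1% and 20.3%. The median member within this range had a mean of 5.18 normalized counts and the median other gene 3.58. The median log2 ratio of the members was 0.04, -0.0030 and 0.11 for the 3 pairs, and that of all genes with a mean of at least 10 was 0.01, -0.02 and 0.04. With total-count scaling the split turned, to 45 higher and 30 lower for M_BB against P_BB and to 36 higher and 43 lower for P_Bb against M_BB.

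Few of these gaps exceeded counting error. Adding the condition that the exact 95% interval of the ratio exclude 1 left 11 members for P_Bb against P_BB (4.26%), 18 for M_BB against P_BB (6.98%) and 10 for P_Bb against M_BB (3.88%). The share among genes other than receptors in the same range was 2.33%, 3.5% and 3.53%. Together they were 31 different receptors, apart in at least 1 of the 3 pairs (12.0% of 258). Such shares over any pair cannot be set against the single-pair shares above, and none was computed for other genes. The share over any pair was larger where the posterior SD was higher. Of 83 members with a posterior SD of 0 in each library 3 were apart in this way (3.61%), of 135 with an SD above 0 and under 1 there were 14 (10.4%), and of 40 with an SD of at least 1 there were 14 (35%). The median level also rose across these classes, at 4.91, 5.18 and 5.94 normalized counts, and why the shares differed was not tested. With posterior means in place of expected counts, 5 of the 11, 12 of the 18 and 8 of the 10 were still apart. SiOR89 and SiOR279 were among those lost for both pairs that involve P_BB, and SiOR280 for both that involve P_Bb.

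The 3 receptors apart in this way with a posterior SD of 0 in each library, named after their values were seen, were SiOR216, SiOR309 and SiOR418. SiOR309 had 12, 5 and 4 counts, with exact 95% intervals of 6.20 to 21.0, 1.62 to 11.7 and 1.09 to 10.2. It was higher in P_Bb than in P_BB by 1.57 on the log2 scale (interval of the ratio 1.04 to 11.5) and than in M_BB by 1.80 (1.15 to 16.2), but the intervals of the single counts overlapped. SiOR418 had 9, 3 and 2 counts and was apart for P_Bb against M_BB, with a log2 ratio of 2.24 (ratio 1.18 to 54.3). SiOR216 had 8, 13 and 3 counts and was lower in M_BB than in P_BB, with a log2 ratio of -1.87 (ratio 0.0441 to 0.879). These compare libraries and not classes of workers.

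The entries SiOR163, SiOR462 and SiOR463 bear the names of supergene receptors in the study's text. SiOR163 had 1 count in P_Bb and 0 in both SB/SB libraries, and SiOR462 had 1, 2.31 and 0, so both were at or under the floor throughout. The study's text gives another identifier for SiOR463, and the entry under the SiOR name was added here after its values were seen. It was the best covered of the 3, with 6, 8 and 11 counts. Its normalized counts were 7.14, 7.17 and 10.3, and the ratio of P_Bb to both SB/SB libraries together was 0.820 (exact 95% interval 0.268 to 2.13). The interval holds both 1 and 0.5, and a difference by genotype was not detectable at this depth. Under the other identifier and with replicated libraries, the study's text reports SiOR463 at about 0.5 in SB/Sb against SB/SB workers. It also reports that the gene is deleted in the Sb genome. Here the entry under that other identifier, XLOC_016888, had normalized counts of 14.3, 21.5 and 12.1. P_Bb thus lay between the SB/SB libraries, and no ratio was computed for this entry. The SiOR463 entry had a posterior SD of at most 0.030, so the assignment of its reads was almost certain.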

How the data were processed

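Antennal polyA RNA of 3 worker classes was measured as 1 pooled library each. The authors aligned quality-controlled reads with Bowtie to the official gene set joined with added antennal transcripts and SiOR sequences, allowing up to 200 alignments a read, and quantified them with RSEM at a forward probability of 0.5, so antisense reads were counted with sense reads. The deposited expected counts and posterior mean counts (also estimated counts, with a posterior SD) need not be whole. TPM was computed by the authors from effective length. The authors' table of EBSeq posterior probabilities and the transcript models, which hold no SiOR identifier, were not used.

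Expected counts were divided by size factors of 0.841 (P_Bb), 1.12 (P_BB) and 1.07 (M_BB), the 75th percentile over 14847 genes with a count, scaled to a geometric mean of 1. With 1 library per class no p-value was computed. Ratio intervals are exact conditional intervals on rounded counts. Without molecular identifiers, all intervals and floors cover counting error only. Entries of similar receptors, or of a receptor also present under another identifier, may share reads.

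Genes were named by a rule: SiOR163, SiOR462 and the other identifiers that the study's text gives for receptors, 5 on each side of the threshold, the 5 longest silent, the 5 shortest, the 5 with most counts in a single library and the 5 with the largest posterior gap. Members, lists and the rule were chosen with earlier results of these data known. Other scalings (median of ratios, TMM in edgeR 4.0.16 on rounded counts, total counts), thresholds, pseudocounts and count estimates were tried. Python 3.11.15 with pandas 2.3.3 and scipy 1.17.1 was used, and the code was tested on simulated data.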

Additional observations from a re-analysis of the deposited data

Results flagged for a closer look

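Of the 112 pairs of a silent or rare receptor and a library with an expected count of 0, 3 had a posterior mean above 3 counts. They were SiOR84 in M_BB, with a posterior mean of 4.95 (posterior SD 3.60), SiOR280 in P_Bb, with 4.42 (3.16), and SiOR84 in P_BB, with 4.05 (3.10). Each of these posterior means lay within 1 posterior SD of the limit of 3 counts. A posterior mean of at least 1 was found in 11 of the 112 pairs, and one above 0 in 35. Among all genes with a mean under 10, the limits of 3, 1 and 0 were passed in 29, 87 and 565 of 19107 pairs. At a mean of at least 1 and under 10, it was 1, 6 and 17 of 36 pairs for members. For other genes in that range it was 9, 21 and 86 of 882 pairs. The transcripts from which these reads came were not tested.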

How the results depend on the processing

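The number of silent or rare receptors was 295 to 296 under the other scalings, 300 with posterior means, 264 per kilobase of effective length, 238 where the highest library had to be under 10 and 415 under a mean of 20. It fell to 158 under a mean of 5 and to 38 under 1, by construction. Leaving out 1 library, tried after seeing the data, gave 292 to 304 receptors, of which 285 to 291 were also chosen by all libraries. Receptors with no reads numbered 7 by posterior means, and 10 by rounded counts and by TPM. With detection at 3 counts, 140 receptors were found in 3 libraries and 64 in 2. The median effective length was 846 bases, and the median length of receptors with no reads 910.5. Over receptor counts the shares were 23.9%, 23.5% and 24.0%, and over TPM 0.175%, 0.161% and 0.168%, for P_Bb, P_BB and M_BB, beside 0.0907%, 0.0837% and 0.0958% of all counts. The numbers 2-fold apart (P_Bb against P_BB, M_BB against P_BB, P_Bb against M_BB) were 13, 16 and 12 with a pseudocount of 5, 25, 26 and 29 at 4-fold, and 11, 18 and 10 with the interval, chosen after seeing the data; each is stricter by construction. No paired analysis was possible because each class had a single library. Depth limits every single receptor: a median of 14 counts over 3 libraries.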

Other observations

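The names of 2 supergene receptors occur under more than 1 identifier. The entry that the study's text gives for SiOR463, XLOC_016888, was 1328 bases long, with 12, 24.0 and 12.9 counts (in the order P_Bb, P_BB, M_BB), whereas the SiOR463 entry was 996 bases long, with 6, 8 and 11. The entry given for SiOR462, SINVm1_gene_13698, was 615 bases long with 0, 2 and 0 counts, and the SiOR462 entry was 822 bases long with 1, 2.31 and 0. The SiOR463 entry had a posterior SD of at most 0.030, so the assignment of its reads was almost certain. Whether its reads also fitted XLOC_016888 was not tested. Whether the entries of a name are the same receptor is not known. A receptor with a second entry in the official gene set can fall under the threshold in its SiOR entry alone, and how many of the 296 have one was not tested.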
